A study of Homo sapiens with 8 samples.

Results

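The colony-stimulating factors are the 3 genes CSF1, CSF2 and CSF3. They were taken by gene symbol, with earlier results of these data known, and are 3 of the 27945 genes in the table. All 3 had counts and passed the filter on low counts that left 12844 genes for testing. For CSF2 and CSF3 this rested on the senescent libraries, since neither gene had a count in a control library.

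CSF1 encodes macrophage colony-stimulating factor (M-CSF), which binds the receptor tyrosine kinase CSF1R and keeps monocytes and macrophages alive. CSF2 encodes granulocyte-macrophage colony-stimulating factor (GM-CSF), which signals through CSF2RA and the beta chain CSF2RB that it shares with interleukins 3 and 5. CSF3 encodes granulocyte colony-stimulating factor (G-CSF), which acts through CSF3R on neutrophils and their precursors. Fibroblasts are a known source of all of them. M-CSF is commonly made by resting cells, whereas GM-CSF and G-CSF are made on inflammatory stimulation and belong to the senescence-associated secretory phenotype (SASP), the set of secreted factors of senescent cells.

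Nascent RNA was profiled by fastGRO-seq, a nuclear run-on assay: engaged polymerases in isolated nuclei add 4-thio-UTP to the transcripts they have begun, and only the RNA marked in this way is captured for sequencing. The cells were IMR90, primary human lung embryonic fibroblasts, infected with a retrovirus for ER:RAS, an oncogenic H-RAS fused to the estrogen receptor and switched on by 4-hydroxytamoxifen (4-OHT). Each of the 4 groups had 2 libraries. Senescence was induced with 4-OHT, for which the methods give 100 nM, in cells with shControl, shMETTL3 or shMETTL14, and the remaining group was control cells. For this induction the methods state a harvest on day 6, to examine RAS and senescence markers. They give no separate day for the fastGRO-seq cells. METTL3 and METTL14 form the methyltransferase complex that places N6-methyladenosine on RNA. Each target was knocked down by a single lentiviral shRNA. Control cells are labeled wild type with no shRNA named, so senescence and shRNA infection cannot be told apart in comparisons with them. Library totals ran from 14897360 to 20306299 counts, of which ribosomal RNA rows held 86.2% to 92.5%, which left 1513930 to 2048475 counts for other genes. Between the libraries of a group the chi-square per gene was 1.74 in control, 1.78 with shControl, 8 with shMETTL3 and 3.64 with shMETTL14, so the shMETTL3 pair differed most, whereas the fit used 1 spread for all groups (biological coefficient of variation 10.6%). The targeted METTL3 gene fell from 77 and 47 counts with shControl to 16 and 19 under its own shRNA (log2 fold change -2.04, standard error (SE) 0.31, adjusted p = 1.79e-05, edgeR). For METTL14 the counts were 24 and 28 with shControl against 18 and 14 under its own shRNA, a difference that missed the threshold (-0.86, SE 0.34, adjusted p = 0.0763, edgeR). METTL14 was lower with its own shRNA than with shMETTL3 (-1.41, adjusted p = 0.00101, edgeR) and than in control cells (-1.62, adjusted p = 0.000119, edgeR), and was already lower in shControl than in control cells (-0.76, adjusted p = 0.0472, edgeR). Of 11 genes listed to check the senescence label, 6 were higher and 3 lower in senescent shControl than in control cells. Of all genes tested 13.3% were higher and 13.3% lower. The lower ones on the list were LMNB1 (log2 fold change -2.28), MKI67 (-2.06) and CCNB1 (-1.24). Fibroblast markers were present in every library, with a summed level of 39.3 to 75.9 RPKM (reads per kilobase of gene length, scaled to library size) over 12 genes. In the same unit 10 leukocyte markers summed to 0.321 to 1.56, and 6 of them, as well as 3 of 6 endothelial and 4 of 7 epithelial markers, had at most 3 counts in any library.

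CSF1 (NM_000757) lies on the plus strand of chr1:110453233-110473616 in hg19, and the annotated transcript has 9 exons that cover 19.8% of its span. CSF2 (NM_000758) lies on the plus strand of chr5:131409485-131411863, with 4 exons over 33.1% of its span. CSF3 (NM_172219) lies on the plus strand of chr17:38171614-38174066, with 5 exons over 63.4% of its span. The counts cover whole gene bodies, introns included. No other counted gene and no other annotated gene overlapped any of the 3, so none of them shared reads with a neighbor.

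The RefSeq promoter table matched 1 of the 3 genes, CSF2, whose start is shown here because its counts rose from 0 in senescence and fell after each knockdown. The stretch below is the 250 bases before the CSF2 start, at chr5:132073539-132073788 on the plus strand of GRCh38.p14, a different build from that of the counts. Capitals mark matches to the motifs searched.
CSF2 promoter: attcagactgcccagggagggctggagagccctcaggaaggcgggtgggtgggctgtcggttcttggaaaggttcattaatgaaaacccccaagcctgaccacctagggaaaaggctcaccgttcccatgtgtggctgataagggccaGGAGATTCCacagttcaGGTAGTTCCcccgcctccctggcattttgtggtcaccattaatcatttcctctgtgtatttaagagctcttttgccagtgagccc
The 6 motifs, searched on both strands, were an NF-kappaB pattern (GGNNNTTCC), the CK-1 element of cytokine promoters (GAGATTCC), AP-1 (TGANTCA), CRE (TGACGTCA), C/EBP (TTNNGCAA) and a TATA box (TATAAA). The NF-kappaB pattern matched at 102 to 94 bases and again at 85 to 77 bases before the start, both on the plus strand. The CK-1 element matched at 101 to 94 bases before the start, inside the first of these, so these matches are not independent. Of 35116 promoters cut to the same length, 17.1% held the NF-kappaB pattern and 0.73% held the CK-1 element. AP-1 (6.57% of promoters), CRE (1.65%), C/EBP (9.05%) and the TATA box (10.7%) had no match, which says only that these letters are not in this window.

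CSF3 and CSF2 were switched on in senescent cells, whereas CSF1 was the only one of the 3 with counts in control cells and was lower in senescence. CSF3 had 0 and 0 counts in control cells and 289 and 254 counts in senescent shControl cells. Both senescent libraries were far above both control libraries. Against a floor of 3 counts per control library the group mean rose at least 118-fold (adjusted p = 5.78e-15, edgeR's quasi-likelihood test). Per length of gene, CSF3 reached 7.11 ± 0.949 RPKM (SD, n = 2), rank 125 of the 12844 tested genes. CSF2 had 0 and 0 counts in control cells and 73 and 78 in senescent shControl cells. The groups did not overlap, and the rise was at least 32.9-fold (adjusted p = 1.52e-10, edgeR), to 2.03 ± 0.00842 RPKM (SD, n = 2) and rank 364. In control cells 3 counts would have been 0.0613 to 0.0624 RPKM for CSF2 and 0.0595 to 0.0605 RPKM for CSF3. The zeros do not exclude levels up to these at this depth.

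CSF1 had 101 and 89 counts in control cells and 25 and 45 in senescent shControl cells. The groups did not overlap. The level was 0.229 ± 0.0231 RPKM in control cells and 0.109 ± 0.0398 RPKM in senescence (SD, n = 2 each), which is -1.06 as a log2 fold change (SE 0.26, adjusted p = 0.00337, edgeR). This call rested on senescent shControl replicate 1, without which the change was -0.73 (adjusted p = 0.139). Of all genes tested, 13.3% were called higher and 13.3% lower in this comparison. Fibroblast markers moved with it, 8 of 11 tested being lower and 1 higher in senescent shControl cells, with a summed level of 50.6 to 53.9 RPKM against 70.4 to 75.9 RPKM in control cells. Their part in the CSF1 difference was not tested, and in these bulk libraries fewer cells that transcribe a gene and less RNA per cell cannot be told apart. The summed level of the leukocyte markers was 1.13 to 1.56 RPKM in senescent shControl and 0.321 to 0.349 RPKM in control cells. Of these 10 genes, CD68 was the only one tested and was higher (log2 fold change 2.05), while the 6 endothelial markers summed to 0.166 to 0.251 RPKM against 0.0502 to 0.0522 RPKM. The higher endothelial sum came from CLDN5, a short gene with 8 and 5 counts with shControl and 0 in every other library, whereas TEK, the only endothelial marker tested, was lower in senescence (-1.04, adjusted p = 0.00201, edgeR). The part of either list in the rises of CSF2 and CSF3 was not tested.

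**Figure D1:**
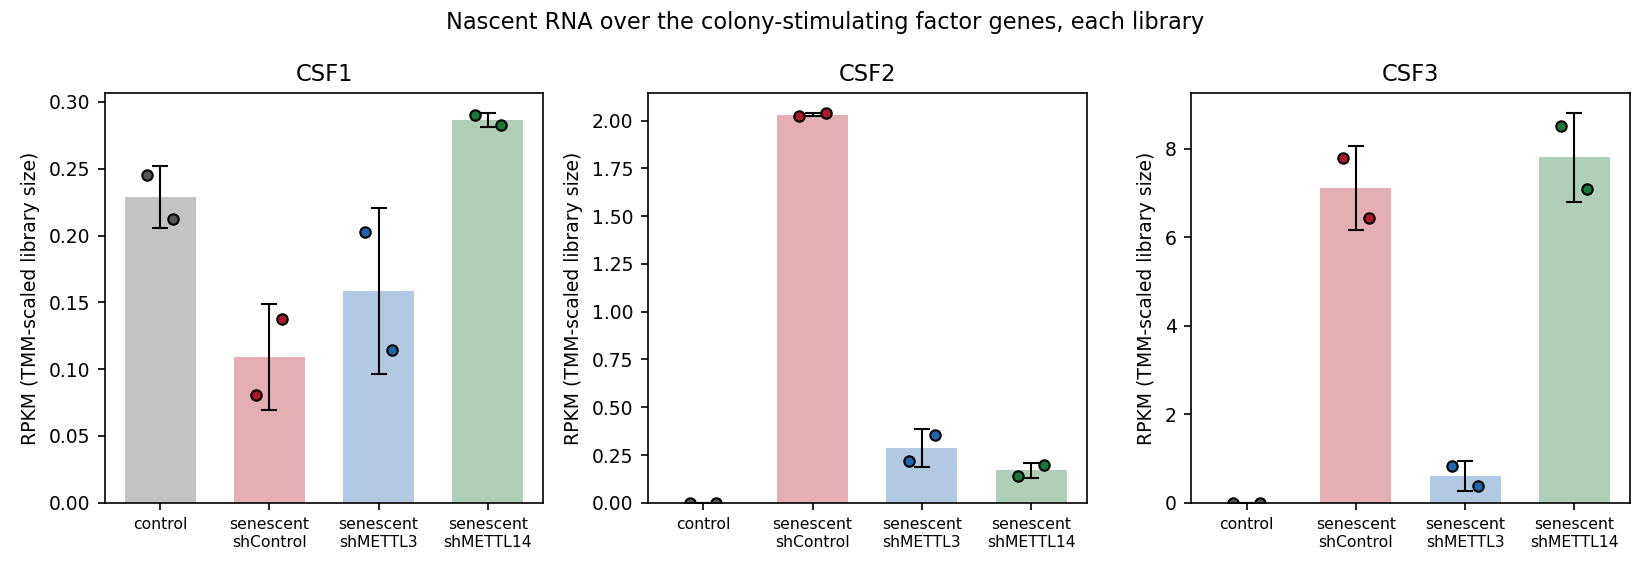
RPKM (reads per kilobase of gene length, with library sizes scaled by TMM) of CSF1, CSF2 and CSF3 on the vertical axes, which differ between panels, in the 4 groups on the horizontal axis. Points are single libraries, bars the mean and error bars the SD of 2 libraries; CSF2 falls with both shRNAs, CSF3 with shMETTL3 only, and CSF1 with shControl lies below its control and shMETTL14 levels.

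After METTL3 knockdown CSF3 and CSF2 lost most of their transcription. CSF3 had 36 and 17 counts with shMETTL3, against 289 and 254 with shControl. Both knockdown libraries were below both shControl libraries. Its level was 0.604 ± 0.335 RPKM (SD, n = 2), 8.50% of that with shControl, and the log2 fold change was -3.57 (SE 0.24, adjusted p = 3.61e-11, edgeR), or 11.9-fold lower. With 36 counts in one shMETTL3 library and 17 in the other, the size of the fall moved from -4.28 without replicate 1 to -3.09 without replicate 2, and it passed the threshold each time. CSF2 had 9 and 16 counts with shMETTL3, against 73 and 78 with shControl. It was lower in both libraries, at 0.287 ± 0.0989 RPKM (SD, n = 2) or 14.1% of the shControl level, with a log2 fold change of -2.80 (SE 0.34, adjusted p = 1.1e-06, edgeR), or 6.98-fold lower. The leukocyte markers summed to 0.530 to 0.919 RPKM with shMETTL3, below the 1.13 to 1.56 RPKM with shControl, and CD68 fell (-0.84, adjusted p = 0.0401, edgeR). The endothelial markers summed to 0.0269 to 0.0335 RPKM with shMETTL3, with CLDN5 at 0 counts, while TEK did not pass the threshold (0.24, adjusted p = 0.556, edgeR). Of 11 fibroblast markers tested 3 were lower, DCN (-2.91) among them, and 1 was higher, with a summed level of 39.3 to 48.3 RPKM against 50.6 to 53.9 RPKM with shControl. The part of these lists in the falls of CSF3 and CSF2 was not tested.

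CSF1 did not pass the threshold after METTL3 knockdown. It had 72 and 44 counts with shMETTL3, against 25 and 45 with shControl, and the normalized values of the groups overlapped. The log2 fold change was 0.52 with a 95% interval of -0.06 to 1.10 (adjusted p = 0.193, edgeR), so a rise of up to 1.10 is within the error. Without shMETTL3 replicate 2 it was 0.86 (adjusted p = 0.0278), and without replicate 1 it was 0.045 (adjusted p = 0.93). With library size alone it was 1.12 (adjusted p = 0.000764, edgeR), with the median of all genes at 0.58. In this comparison 12.3% of all genes tested were called higher and 11.2% lower.

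After METTL14 knockdown CSF2 fell, CSF1 rose and CSF3 did not pass the threshold. CSF2 had 6 and 8 counts with shMETTL14, against 73 and 78 with shControl. It was lower in both libraries, at 0.169 ± 0.0403 RPKM (SD, n = 2) or 8.33% of the shControl level, and the log2 fold change was -3.57 (SE 0.38, adjusted p = 1.11e-07, edgeR), or 11.9-fold lower. The leukocyte markers summed to 0.945 to 1.05 RPKM with shMETTL14, below the range with shControl, although CD68 did not pass the threshold (-0.37, adjusted p = 0.39, edgeR). The endothelial markers summed to 0.00923 to 0.0199 RPKM, and TEK fell (-1.28, adjusted p = 0.00481, edgeR). Their part in the fall of CSF2 was not tested. CSF3 had 374 and 296 counts with shMETTL14, against 289 and 254 with shControl. Its groups overlapped after normalization, at 7.80 ± 1.00 RPKM (SD, n = 2) with shMETTL14, and the log2 fold change was 0.14 with a 95% interval of -0.21 to 0.49 (adjusted p = 0.622, edgeR). A fall of the size seen with shMETTL3 lies outside that interval, whose lower bound is -0.21. Scaled by library size only, the change was 0.50 (adjusted p = 0.0449, edgeR), while the median of all genes moved to 0.35, and without shMETTL14 replicate 1 it was -0.022.

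CSF1 had 106 and 98 counts with shMETTL14, against 25 and 45 with shControl. Both knockdown libraries were above both shControl libraries, at 0.286 ± 0.00532 RPKM (SD, n = 2), and the log2 fold change was 1.38 (SE 0.26, adjusted p = 0.000305, edgeR), or 2.61-fold higher. It was 1.06 without shControl replicate 1 and 1.81 without shControl replicate 2, and passed the threshold both times. In this comparison 9.15% of all genes tested were called higher and 12% lower. Here too fibroblast markers moved, 9 of 11 tested being lower with shMETTL14 and none higher, with a summed level of 40.0 to 41.0 RPKM. CSF1 went up while they went down, and their part in this was not tested.

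The knockdown groups were also compared directly, since both are otherwise set against the same shControl libraries. CSF3 was 13.03-fold higher with shMETTL14 than with shMETTL3 (log2 fold change 3.70, SE 0.23, adjusted p = 2.24e-11, edgeR), with 374 and 296 counts against 36 and 17. It was 4.41 without shMETTL3 replicate 1 and 3.23 without replicate 2. CSF1 was 1.82-fold higher (0.86, SE 0.24, adjusted p = 0.00625, edgeR), but this call was lost without shMETTL3 replicate 2 (0.52, adjusted p = 0.103) and without shMETTL14 replicate 1 (0.82, adjusted p = 0.0563). CSF2 did not differ past the threshold, at -0.77 with a 95% interval of -1.80 to 0.27 (adjusted p = 0.247, edgeR). With at most 16 counts in each of these libraries the depth limits that comparison, although the normalized values did not overlap. Of all genes tested, 16.5% were called higher and 18.7% lower with shMETTL14 than with shMETTL3. Markers moved as well: both tested epithelial markers were higher with shMETTL14, KRT8 (1.38) and KRT18 (1.63), and the list of 7 summed to 0.518 to 0.725 RPKM against 0.181 to 0.182 RPKM. Of 11 fibroblast markers 6 were lower and 1 higher, and TEK was lower (-1.52). Their part in the differences of CSF3 and CSF1 was not tested.

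**Figure D2:**
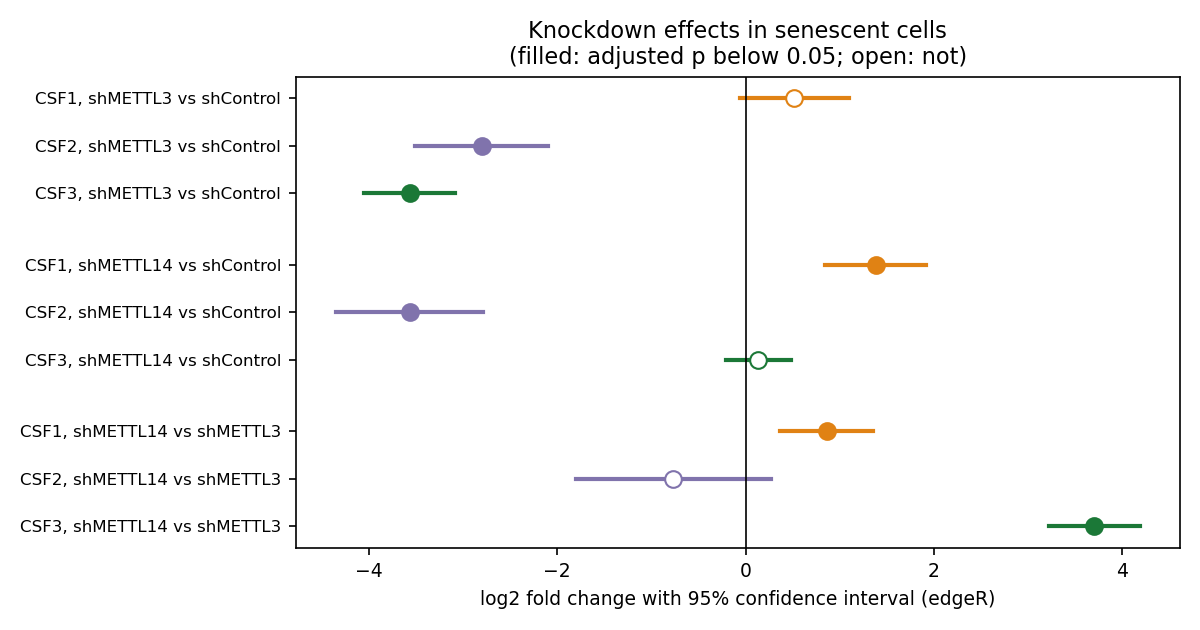
Log2 fold change of each gene (horizontal axis, edgeR) with its 95% confidence interval, for shMETTL3 against shControl, shMETTL14 against shControl and shMETTL14 against shMETTL3, all in senescent cells. Filled points passed an adjusted p of 0.05; CSF3 lies at -3.57 with shMETTL3 and at 0.14 with shMETTL14, while CSF2 lies below -2.5 with either.

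What was left after knockdown was set against control cells. CSF2 remained at least 4.64-fold above the control floor with shMETTL3 (adjusted p = 2.67e-05, edgeR) and at least 2.74-fold above it with shMETTL14 (adjusted p = 0.000536, edgeR). CSF3 was at least 10.1-fold above the floor with shMETTL3 (adjusted p = 4.1e-07, edgeR) and at least 130-fold with shMETTL14 (adjusted p = 3.59e-15, edgeR). These bounds are on group means. Taken alone, shMETTL3 replicate 1 gave a bound of 14.02-fold for CSF3 and replicate 2 one of 6.13-fold. For CSF2, shMETTL3 replicates 1 and 2 gave 3.505-fold and 5.77-fold, and shMETTL14 replicates 1 and 2 gave 2.28-fold and 3.20-fold. Neither gene was back at zero in any knockdown library. CSF1 did not pass the threshold against control cells with shMETTL3 (log2 fold change -0.54, 95% interval -1.04 to -0.04, adjusted p = 0.0789, edgeR) or with shMETTL14 (0.33, 95% interval -0.14 to 0.79, adjusted p = 0.261, edgeR). Without shMETTL3 replicate 1 the former was -0.999 (adjusted p = 0.00254). Against control cells 20.1% of genes tested were higher and 20.1% lower with shMETTL3, and 19.7% were higher and 20.5% lower with shMETTL14.

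The mix of the 3 factors therefore differed from group to group. RPKM divides counts by gene length but does not adjust for where reads fall in a gene or for the exon share of its span. Shares between the 3 genes are therefore only approximate. In RPKM, CSF1 made up 100% of their sum in both control libraries, where the sum was 0.245 and 0.212 RPKM. With CSF2 and CSF3 set at their floor of 3 counts and CSF1 kept at its measured level, the share of CSF1 would be 66.6% and 63.7%. With shControl the sums were 9.89 and 8.61 RPKM, of which CSF3 made up 78.7% and 74.7%, CSF2 20.5% and 23.7%, and CSF1 0.82% and 1.59%. CSF3 led in both libraries. With shMETTL3 the sums were 1.26 and 0.839 RPKM, and the replicates differed in make-up. CSF3 held 66.7% and 43.8%, CSF2 17.2% and 42.5%, and CSF1 16.1% and 13.7%. With shMETTL14 the sums, 8.94 and 7.58 RPKM, were near those with shControl, but CSF3 held 95.2% and 93.7% and CSF2 only 1.57% and 2.61%. The ratio of CSF3 to CSF2 level was thus 3.84 and 3.16 in the shControl libraries, 3.88 and 1.03 in the shMETTL3 libraries, and 60.5 and 35.9 in the shMETTL14 libraries.

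**Figure D3:**
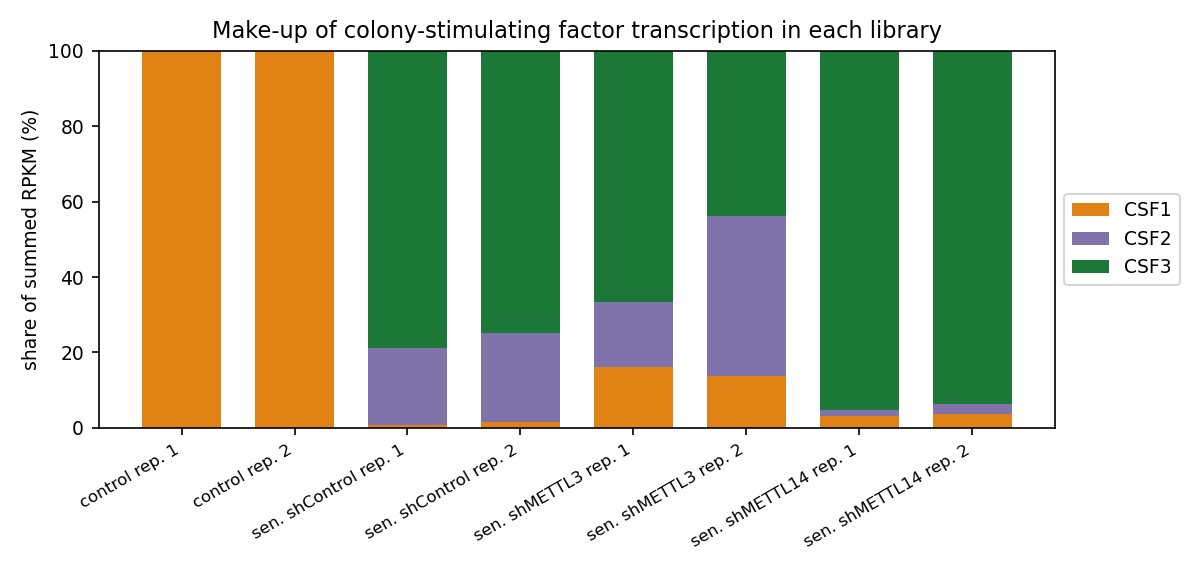
Share of CSF1, CSF2 and CSF3 in their summed RPKM (vertical axis, percent) in each of the 8 libraries (horizontal axis). In control libraries every count was of CSF1 (a share of 66.6% and 63.7% with the others set at 3 counts). The shControl libraries were mostly CSF3 with 20.5% and 23.7% CSF2, and the shMETTL14 libraries 95.2% and 93.7% CSF3.

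Cytokines that act on the same or related receptors were examined next. Values in parentheses after a gene are log2 fold changes from the same edgeR fit, and a gene is said to rise or fall, or to be higher or lower, only where its adjusted p was below 0.05. Of 10 such ligands, 4 were tested, and all 4 rose in senescence: IL11 (log2 fold change 4.73), IL6 (4.36), LIF (1.85) and KITLG (1.48), the ligand of the stem cell factor receptor KIT. Among all genes tested 13.3% rose, and the median of the 4 was 3.11 against -0.03 over all genes. After METTL3 knockdown all 4 fell, with IL11 at -2.97, IL6 at -2.37 and LIF at -1.67 and a median of -2.02, where 11.2% of all genes fell. After METTL14 knockdown 3 fell, namely IL11 (-1.52), IL6 (-0.89) and KITLG (-0.89), with a median of -0.89, where 12% of all genes fell. LIF counts were 537 and 490 with shControl, fell to 210 and 163 with shMETTL3, and stood at 701 and 586 with shMETTL14. It was low in both shMETTL3 libraries, as CSF3 was, and did not pass the threshold with shMETTL14 (0.16, adjusted p = 0.534, edgeR). Between the knockdowns LIF (1.83), IL6 (1.48) and IL11 (1.45) were higher with shMETTL14, as were 16.5% of all genes, and none of the 4 was lower. IL3 and IL5, which share the beta chain CSF2RB with GM-CSF, had no count in any library, although IL3 lies only 10589 bases to the left of CSF2.

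Of the receptors for the factors, CSF2RB and CSF3R had 1 count each over all 8 libraries. CSF2RA is listed at 0 in every library, as is IL3RA, but both are annotated on X and Y alike, and 26 of the 27 genes in the table with such an annotation had no count at all. Reads from sequence that both chromosomes share may not have been counted, so nothing on the transcription of CSF2RA can be read from its zero. CSF1R had 35 counts in all and at most 7 in a library. Of 8 receptors only KIT could be tested, and it was lower in senescence (-2.31), with 52 and 72 counts in control and 8 and 11 with shControl. It was lower again with shMETTL3 (2 and 0 counts) and with shMETTL14 (0 and 2 counts). These counts are under the floor of 3, so only the direction of these falls is given.

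Downstream of these receptors 23 signalling and feedback genes were listed and 19 tested. In senescence 4 rose, among them MCL1 (2.01), SOCS3 (1.77) and SH2B3 (1.66), and 4 fell, among them PIM1 (-1.48), GAB2 (-1.03) and STAT5B (-0.73). MCL1 is an anti-apoptotic protein, and SOCS3 is the feedback inhibitor that binds the G-CSF receptor and gp130. These 4 and 4 of 19 stand beside 13.3% of all genes in each direction, and the median was 0.20 against -0.03 over all genes. With shMETTL3, 2 rose, BCL2L1 (0.85) and JAK2 (0.56), and 7 fell, with SOCS3 (-1.97), SHC1 (-0.83) and SH2B3 (-0.78) the furthest, beside 12.3% and 11.2% of all genes. With shMETTL14 only BCL2L1 (0.96) rose and 3 fell, among them SHC1 (-0.54) and SH2B3 (-0.46), beside 9.15% and 12%. Between the knockdowns 5 were higher with shMETTL14, SOCS3 (1.61) the most, and 3 were lower, beside 16.5% and 18.7%.

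A list of 26 genes held NFKBIA and transcription factors known to act at promoters of colony-stimulating factors, and 25 of them were tested. In senescence 7 were higher, led by NFKBIA (1.12), which encodes the inhibitor of NF-kappaB and is itself its target, ETS1 (1.06) and EGR1 (0.98), and 2 were lower, FOSL2 (-0.70) and SP1 (-0.61). Of all genes 13.3% were called in each direction, and the median of the list was 0.32 against -0.03. With shMETTL3, 7 were higher, led by NFATC2 (2.26), FOSB (1.08) and NFKB1 (0.90), and 2 were lower, the AP-1 genes FOSL2 (-1.30) and JUN (-0.95). The shares of 7 and 2 of 25 compare with 12.3% and 11.2% of all genes, and the median of the list was -0.25 against -0.03 over all genes.
With shMETTL14, 12 of the 25 were higher and 1 was lower, against 9.15% and 12% of all genes. NFKBIA (1.75), RELB (1.70) and FOSL1 (1.69) were the furthest up and ETS2 (-0.60) was the one that fell. The median was 0.49, against 0.00 over all genes. In the direct comparison 13 were higher with shMETTL14 than with shMETTL3, with NFKBIA (2.28), EGR1 (2.04) and FOSL1 (1.99) the furthest, and 4 were lower, with NFATC2 (-2.07) and FOSB (-0.71) the furthest. Of all genes 16.5% were higher and 18.7% lower, and the median of the list was 0.64 against 0.01.

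**Figure D4:**
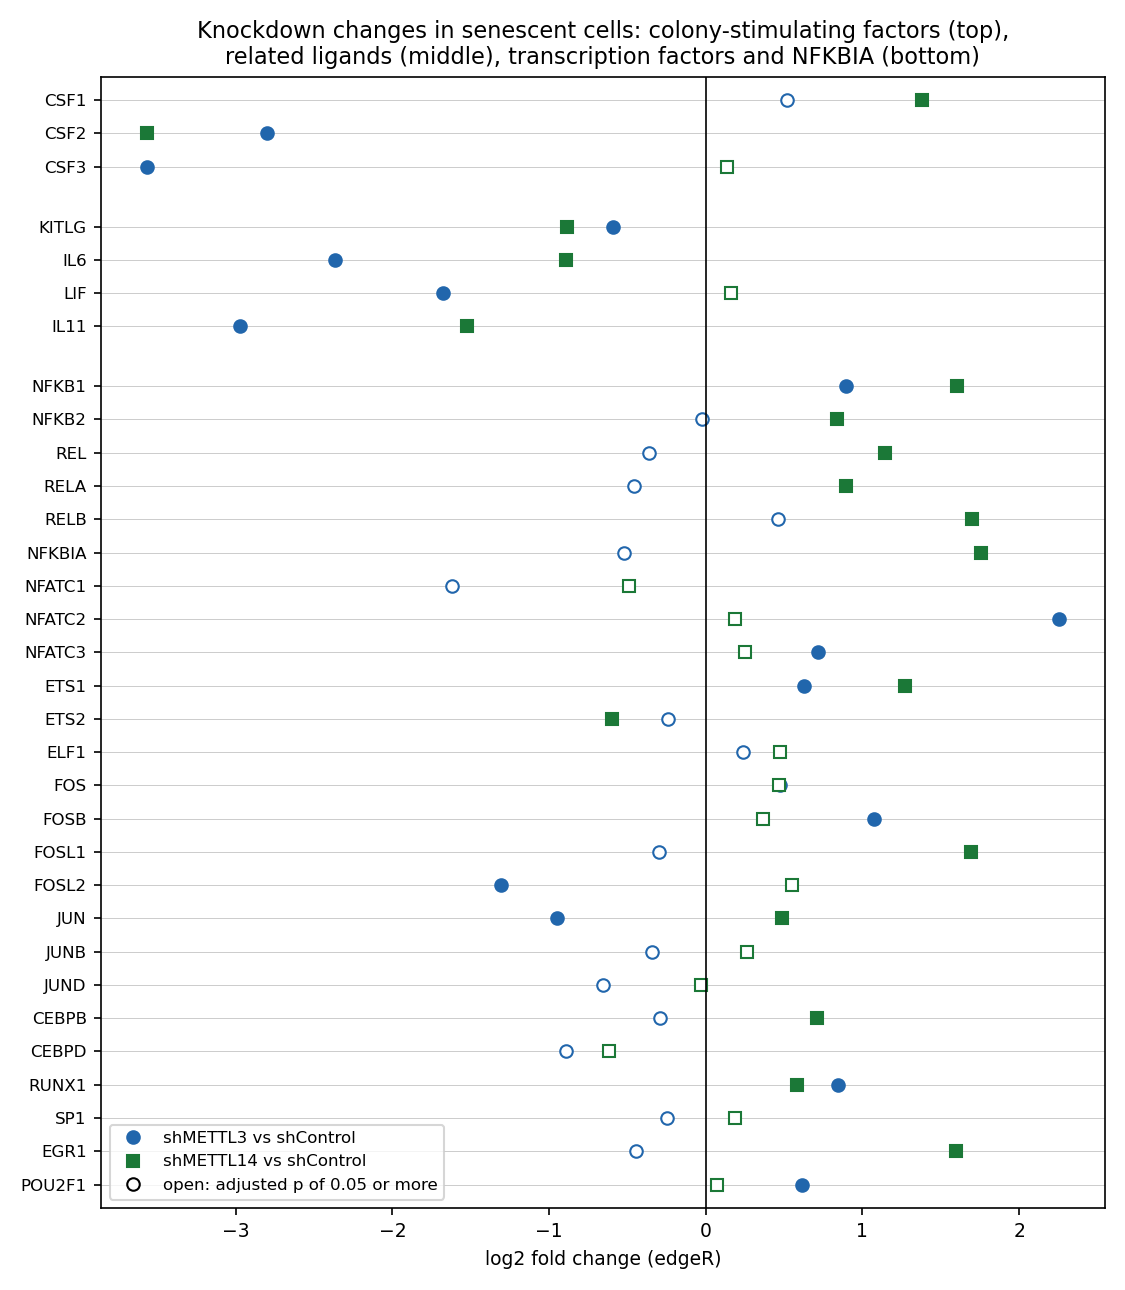
Log2 fold changes (horizontal axis, edgeR) with shMETTL3 (circles) and shMETTL14 (squares) against the same shControl libraries, for CSF1 to CSF3, the 4 tested related ligands and the 25 tested genes of the transcription factor list, NFKBIA included. Filled symbols passed an adjusted p of 0.05; of that list 12 were higher with shMETTL14 and 7 with shMETTL3, and both sets of changes share their control libraries.

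Proteins that bind AU-rich elements, the sequences through which CSF2 and CSF3 mRNAs are known to be turned over quickly, act after the step measured here. All 8 genes of that list were tested. In senescence 2 were lower, ZFP36L2 (-1.62) and ZFP36L1 (-0.42), and none higher, where 13.3% of all genes went each way. ZFP36L2 (-1.25) was lower with shMETTL3 and HNRNPD (-0.53) with shMETTL14, with none higher in either, where 11.2% and 12% of all genes were lower. Between the knockdowns ZFP36 (1.88), ZFP36L2 (1.57) and ELAVL1 (0.54) were higher with shMETTL14 and TIA1 (-0.51) was lower, beside 16.5% and 18.7% of all genes. ZFP36 encodes tristetraprolin, which promotes decay of these mRNAs.

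The neighborhoods of the 3 genes were read within 250 kb on either side, from the same fits. Around CSF3 there were 18 counted genes, 9 of them tested, and none was called in senescence, where 13.3% of all genes rose and 13.3% fell, with a median of -0.06, although CSF3 itself went from 0 to 289 and 254 counts. The nearest tested genes were PSMD3, a proteasome subunit 17401 bases to its left, with 107 and 111 counts with shControl, and MED24, a Mediator subunit 1284 bases to its right, with 44 and 46. With shMETTL3, 4 of the 9 fell, THRA (-1.57), ORMDL3 (-1.53) and PSMD3 (-0.88) the furthest, against 11.2% of all genes, and with shMETTL14 WIPF2 (0.63) rose, against 9.15%. Between the knockdowns 5 of the 9 were higher with shMETTL14, as CSF3 was, with ORMDL3 (1.53), PSMD3 (1.27) and WIPF2 (1.02) the furthest, and none was lower, while 16.5% of all genes were higher. Their median was 0.76, against 0.01 over all genes. THRA and its neighbor NR1D1 overlap on opposite strands over 1084 bases, 3.49% of THRA, and share reads there.

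Around CSF2 there were 9 counted genes, of which 5 were tested, all of them to its right. The nearest was P4HA2-AS1, 108706 bases away. In senescence 4 of the 5 rose, SLC22A4 (2.45), MIR3936HG (1.91) and PDLIM4 (1.26) the furthest, with a median of 1.26 against -0.03 over all genes, of which 13.3% rose. With shMETTL3 PDLIM4 (-1.16) and SLC22A4 (-0.72) fell, and with shMETTL14 P4HA2 (-1.18) and PDLIM4 (-0.75) fell, where 11.2% and 12% of all genes did. None of them fell as far as CSF2 did. SLC22A4 and MIR3936HG overlap on opposite strands over 32931 bases, 66.2% of the former and 56.2% of the latter, and the counts did not keep strands apart, so they share reads and their rises are not independent. P4HA2 and P4HA2-AS1 overlap in the same way over 195 bases at their ends. Around CSF1, 4 of 12 genes were tested, and none was called in senescence or with either shRNA against shControl, where 9.15% to 13.3% of all genes were called in each direction. The nearest were GSTM3, 169573 bases to the left, and AHCYL1, 53771 bases to the right. GSTM2 (-1.43) and AHCYL1 (-0.61) were lower with shMETTL14 than with shMETTL3, opposite in sign to CSF1 (0.86), where 18.7% of all genes were lower. GSTM2 belongs to a cluster of near-identical genes among which reads can be split, so its value is uncertain.

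**Figure D5:**
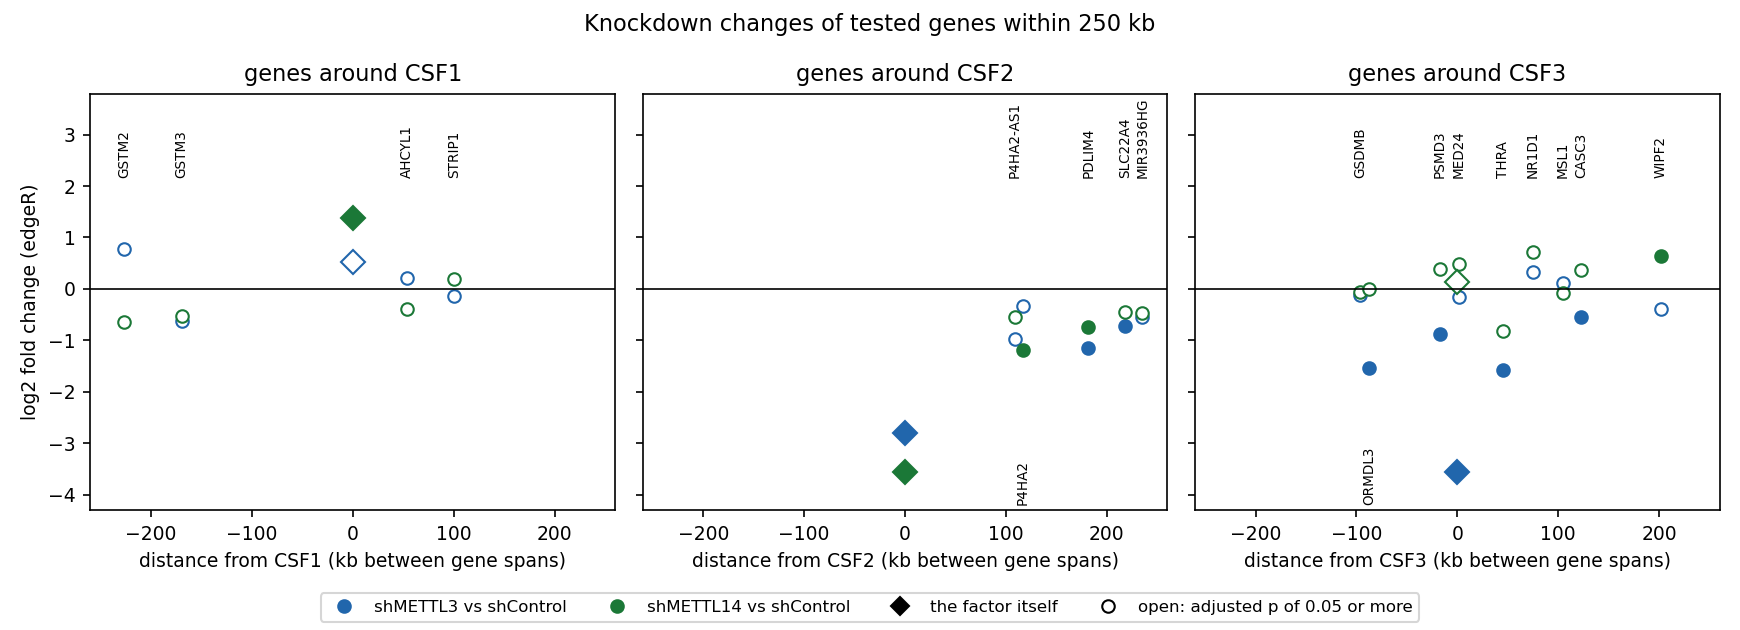
Log2 fold change (vertical axis, edgeR) with shMETTL3 (blue) and shMETTL14 (green) against shControl of the tested genes within 250 kb of CSF1, CSF2 and CSF3, against their distance in kb from that gene (horizontal axis, gap between gene spans). Diamonds are the factors themselves and filled symbols passed an adjusted p of 0.05; CSF2 and, with shMETTL3, CSF3 lie below all of their tested neighbors.

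Finally, the genes whose level ran most like that of each factor were found from log2 CPM over the 8 libraries, among 3883 genes whose mean count was at least 100 (3882 for CSF3, which was itself one of them). With 4 groups of 2 libraries these correlations mostly describe the group means, and the points share normalization and depth. For CSF3 they were SERPINB2 (Pearson r = 0.996), MSN (0.993), SLC39A14 (0.991), C3 (0.990) and PLAUR (0.986). SERPINB2 and PLAUR encode an inhibitor and the receptor of the urokinase system. For CSF2 they were the neutrophil chemokine CXCL5 (0.995), TTC14 (0.993), AKAP12 (0.988), KITLG (0.987) and the growth factor FGF2 (0.983). For CSF1 they were RHEB (0.956), BCAR1 (0.936), MAPK8IP3 (0.933), ELMSAN1 (0.928) and MAD1L1 (0.917). No gene appeared in more than 1 of these lists. Between the factors themselves r was 0.758 for CSF2 and CSF3, -0.729 for CSF1 and CSF2, and -0.177 for CSF1 and CSF3.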

How the data were processed

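Processed fastGRO-seq values for 8 libraries of IMR90 ER:RAS cells, 4 groups of 2, were used. The authors aligned the reads to hg19 (STAR is named in their processing notes) and deposited raw counts per gene, made with HOMER over whole gene bodies with replicates kept apart. The file header gives a strand option, but genes nested on opposite strands shared reads. The outer gene of such a pair counted fewer reads than the inner one in 2 of 315 pairs. The deposited length in bases of each gene, per the file headers, gave RPKM. Without the Drosophila spike-in, which was not used here, a shift common to all genes goes unseen. Replicates are labeled by number only, and p-values measure the spread between these libraries.

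Counts were tested with edgeR 4.0.16 in R 4.3.3: filterByExpr with a minimum count of 10, TMM, and 1 quasi-likelihood fit over all 8 libraries, with 6 contrasts. The biological coefficient of variation was 10.6%. Genes were called at a Benjamini-Hochberg adjusted p below 0.05 over 12844 genes. RPKM and normalized counts use TMM-scaled library sizes. Intervals for single genes are 95%. For the 3 factors, if neither library of a group exceeded 3 counts, the fold is the mean of the other group against 3 counts per library. It is a lower bound for counting error in the low group only. On simulated data for senescent shControl against control (12338 genes, 200 changed by 1 on the log2 scale), edgeR recovered 183 changed genes in the right direction and called 11 unchanged ones, and DESeq2 recovered 157 and called 2. The simulation gave all groups a common mean profile and a common spread, and changed only well-counted genes. It does not cover the low counts of CSF2 or the wider spread of the shMETTL3 pair.

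The 3 genes and all gene lists were chosen with earlier results of these data known. Named genes were the 3 factors, METTL3 and METTL14, up to 3 rises and 3 falls per list, the nearest tested gene on each side, and the 5 genes most correlated with each factor (prior count 2). KITLG in senescence, LIF with shMETTL14, IL3, IL5, the receptors and neighbors other than the nearest were named after their values were seen. A gene covered by the naming rule is not reported here. CSF2 is in a list that the study chose on these libraries for a rise in senescence and falls after both knockdowns, so that pattern is not independent evidence of its direction. Alternatives were DESeq2 1.42.0, library size alone, upper quartile scaling, no filter, at least 10 counts in every library, a fit of only the groups compared, a replicate block, no ribosomal RNA rows, and each library left out in turn. Promoter sequences were from RefSeq (GRCh38.p14). Plots were drawn with matplotlib 3.10.9.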

Additional observations from a re-analysis of the deposited data

Results flagged for a closer look

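Between the knockdowns the effect on CSF3 differed, with a log2 difference of 3.70 (shMETTL14 minus shMETTL3, adjusted p = 2.24e-11, edgeR) and higher values in both shMETTL14 libraries. The effect on CSF1 also differed, by 0.86 (adjusted p = 0.00625, edgeR), with both shMETTL14 libraries higher, but not when shMETTL3 replicate 2 or shMETTL14 replicate 1 was left out.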

How the results depend on the processing

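Of 201 alternative values for the 18 results on the 3 factors, 192 kept their direction and side of the threshold, 3 lost the call, 5 gained it and 1 changed sign. CSF1 in senescence ran from -1.48 to -0.73 with single libraries left out. With shMETTL3 against shControl it ran from 0.045 to 0.94 and was 1.12 with library size alone (adjusted p = 0.000764). Between the knockdowns it ran from 0.52 to 1.34, and with shMETTL3 against control from -0.999 to -0.18, with -0.61 under upper quartile scaling (adjusted p = 0.0475). CSF3 with shMETTL14 against shControl ran from -0.022 (without shMETTL14 replicate 1) to 0.28, and was 0.50 with library size alone (adjusted p = 0.0449). Library size alone moved the median of all genes to -0.53 in senescence, 0.58 with shMETTL3, 0.35 with shMETTL14 and -0.25 between the knockdowns. The numbers of genes called then were 752 higher and 5015 lower in senescence, 5287 and 353 with shMETTL3, 3163 and 709 with shMETTL14, and 1177 higher between the knockdowns. With DESeq2 they were 908 lower in senescence, 957 higher and 728 lower with shMETTL3, 568 and 951 with shMETTL14, 1212 higher between the knockdowns and 1586 lower for shMETTL3 against control. With single libraries left out they ran, higher and lower, from 1066 to 1329 and 763 to 1092 in senescence, 769 to 1932 and 723 to 2060 with shMETTL3, 486 to 819 and 784 to 1217 with shMETTL14, 995 to 2697 and 1409 to 2712 between the knockdowns, 1929 to 2897 and 1834 to 3083 for shMETTL3 against control, and 1806 to 2072 and 1738 to 2117 for shMETTL14 against control. The replicate block changed none of these calls. With it CSF3 with shMETTL3 was at -3.57 (adjusted p = 1.62e-10, edgeR) and CSF1 in senescence at -1.05 (adjusted p = 0.00496, edgeR). Deviations of same-numbered libraries had correlations of -0.04 to 0.10. With so few libraries per group and labels by number only, this cannot settle whether the libraries were paired. The filter of at least 10 counts in every library gave no value for CSF2 or CSF3. The causes of these changes were not tested.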
